A study of Macaca mulatta with 13 samples.

Results

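GZMA, GZMB, GZMK and GZMM encode granzymes A, B, K and M, the serine proteases that killer lymphocytes keep in granules. The 4 genes were taken by symbol from a table of 34628 genes, where each has 1 row (ENSMMUG00000001597, ENSMMUG00000014381, ENSMMUG00000020171 and ENSMMUG00000045966). Their levels were read in single leukocytes of rhesus macaque colon. The animals were healthy, or had received a transplant of blood-forming cells and developed graft-versus-host disease (GVHD), an attack of grafted T cells on the tissues of their new host. The labels name 13 libraries: 4 host samples, 2 donor samples, 3 combined host and donor samples, and 4 samples of untransplanted healthy controls. Per the labels' protocols, thawed viable leukocytes were sorted by their surface CD45, and they were negative for the CD45 label marked IVas. Host and donor fractions were parted by staining for the macaque MHC molecule MAMU-A001 in 2 of the 4 GVHD colon samples and computationally in the other 2, so a host and a donor library may come from 1 animal. The sources used here do not give age, conditioning, graft or time after transplant.

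Granzymes reach a target cell through the pore that perforin makes. Granzyme A cleaves after basic residues and granzyme B after aspartate, which lets granzyme B switch on the caspases of programmed cell death. Granzyme K shares the preference of granzyme A, and granzyme M cleaves after methionine or leucine. In human and mouse T cells GZMB and perforin mark effector cells, GZMK often marks CD8 T cells of an earlier or memory type, and GZMM is known from innate-like lymphocytes. In RefSeq's annotation of assembly T2T-MMU8v2.0, which may not be the build of the files, GZMK and GZMA are neighbouring coding genes. GZMB lies there next to GZMH, a close relative whose symbol is absent from the gene list of the files, so reads of that gene could have been counted as GZMB or lost, and the GZMB values carry this uncertainty.

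A UMI (unique molecular identifier) stands for 1 captured RNA molecule, and the counts are UMIs. The authors kept 20606 of 57086 barcodes. Each barcode ends in a library number, and the labels do not say which number belongs to which sample. Numbers 4 and 6 share 5323 barcodes, against 1 to 55 for other pairs within numbers 1 to 7 or 8 to 13 and 0 to 3 between these 2 sets, and all 39 kept barcodes of number 4 are also kept in number 6, so number 4 was dropped. In the 20567 cells of the 12 libraries left, 13104 (63.7%) met the T-cell gate of at least 3 UMIs over CD3D, CD3E and CD3G. Libraries 6 and 7 gave 45 and 13 of them, and the other 10 libraries 234 to 2314 each. No doublet caller was run. Of all kept cells, 1406 met both the T gate and the B-cell gate (at least 2 UMIs over MS4A1 and CD79A), and between 12.9% and 61.5% of a library's T cells held a UMI of MS4A1, CD79A or MZB1. Levels are in CPM, the UMIs of a gene per 1000000 UMIs of the cells in question. All tests below compare kinds of cell within libraries, and their p-values measure the spread between these libraries, which are not known to be independent animals.

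Most granzyme RNA lay in T cells. They held 98.6% of the UMIs of GZMA in kept cells, 94.8% of GZMB, 95.5% of GZMK and 95.5% of GZMM. In the 10 libraries with at least 100 T cells, GZMA had a median of 501 CPM in T cells, with 25.9 CPM in library 9 as the lowest and 8748 CPM in library 5 as the highest. For GZMB the lowest was 190.5 CPM in library 8, the median 1438 CPM and the highest 8782 CPM in library 5. Both genes thus spanned wide ranges and peaked in the same library. GZMK ran from 29.8 CPM in library 13 over a median of 54.8 CPM to 411 CPM in library 5. GZMM ran from 0.481 CPM in library 5 over a median of 44.0 CPM to 193 CPM in library 2, so the library with the highest GZMA, GZMB and GZMK had the lowest GZMM. The value of library 5 rests on 3 GZMM UMIs in 719 T cells (exact Poisson 95% interval 0.0991 to 1.41 CPM). In library 2, 2236 UMIs gave an interval of 186 to 202 CPM. Such intervals cover counting error only.

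**Figure D1:**
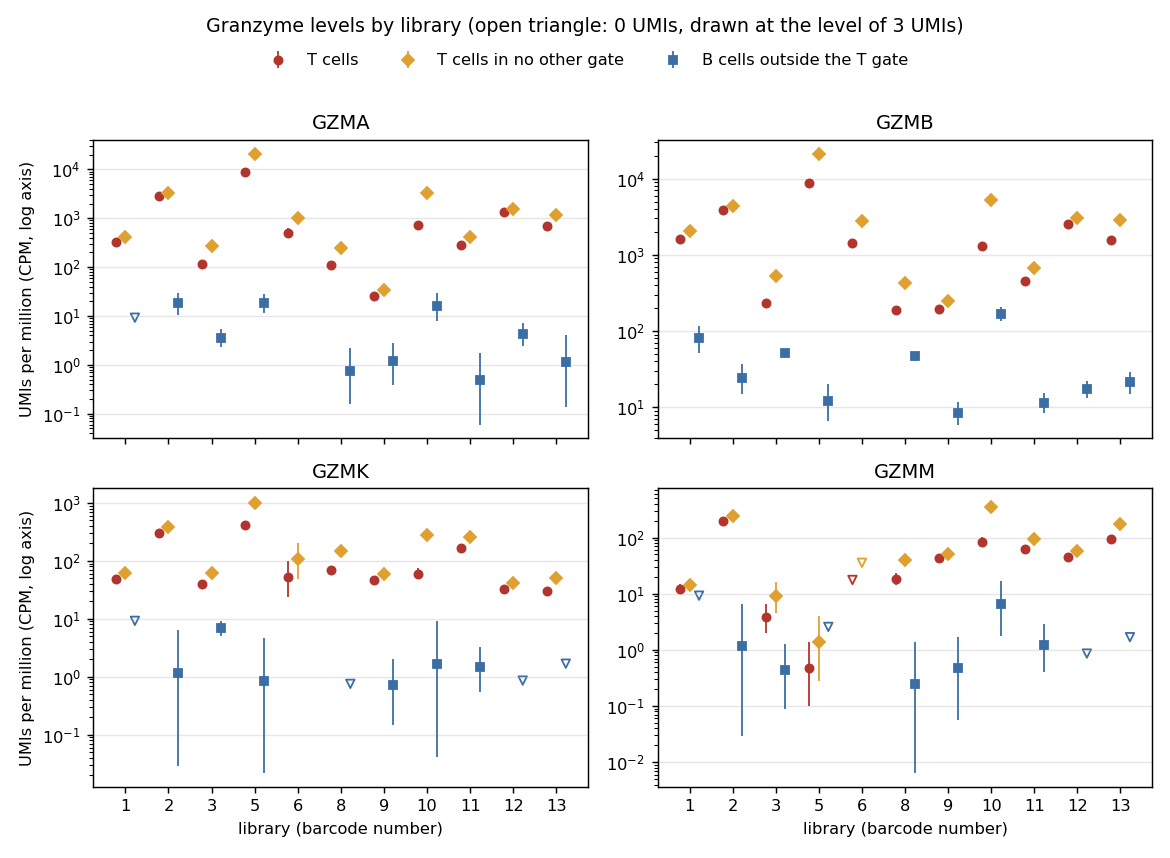
Levels of the 4 granzymes (CPM, log axis) in T cells, T cells that met no other gate and B cells outside the T gate, by library, with exact Poisson 95% intervals and only where a kind had at least 20 cells. GZMA and GZMB in T cells were highest in library 5 (8748 and 8782 CPM), where GZMM was at 0.481 CPM.

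Free RNA in droplets was gauged in the 4459 B cells outside the T gate. B cells should lack granzymes, but this gate also took in cells that met other gates, such as plasma cells with CD79A. Libraries 1, 5, 10 and 13 had fewer than 20 B cells of no other gate, and library 12 had 39 of 166. In these libraries the gated B cells had median depths of 8419 to 20839 UMIs. GZMB was at 1.24 to 30.7 CPM in B cells of no other gate in the 6 libraries with at least 20. Each of the 4 genes was higher in T cells than in B cells in 10 of 10 libraries. Both kinds had at least 4 UMIs in 6 of these for GZMA, 10 for GZMB, 2 for GZMK and 2 for GZMM. For GZMM in library 5 the order is open, with 3 UMIs in T cells and 0 in 61 B cells, whose interval reaches 3.15 CPM. The level in B cells was a median of 0.481% of that in T cells for GZMA (range 0 to 4.54%), 3.45% for GZMB (0.136 to 24.4%), 0.296% for GZMK (0 to 17.3%) and 1.10% for GZMM (0 to 11.5%). After every cell was thinned to 1500 UMIs, which kept every cell, GZMA was detected in 18.1% of T cells (exact binomial 95% interval 17.4 to 18.8) and 0.471% of B cells. The median depth before thinning was 3294.5 UMIs in T cells and 3704 in B cells. GZMB was detected in 33.9% of thinned T cells and 1.14% of B cells, GZMK in 8.71% and 0.247%, and GZMM in 8.53% and 0.112%. The highest GZMB share, that of library 8, came from 185 UMIs in 792 B cells of which 1.01% had any, and the 678 B cells there that met no other gate had 5 UMIs, or 1.97 CPM. In library 3 GZMB was at 51.6 CPM in B cells outside the T gate and 25.1 CPM in those of no other gate, so these levels were not even over B cells. Without thinning the shares of T cells were 23.3%, 40.8%, 11.1% and 13.9%.

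Levels were higher once droplets that met a second gate were left out. In T cells that met no other gate, GZMA was 1.14 to 4.53 times its level in all T cells of the same library (median 1.60), and the median over the 10 libraries was 798 CPM. The corresponding medians were 2443 CPM for GZMB, 106 CPM for GZMK and 54.1 CPM for GZMM. Library 5 had 21065 CPM of GZMA and 21235 CPM of GZMB in these cells, while GZMM there was at 1.35 CPM. Library 10 moved most in GZMA, from 723 to 3275 CPM of GZMA and from 84.7 to 352 CPM of GZMM. B-cell markers summed to between 46.4 and 1102 CPM and plasma-cell markers (MZB1, DERL3 and TNFRSF17) to between 99.1 and 3520 CPM in the T cells of these 10 libraries. Only MS4A1 in library 13 was at 0 among the B-cell markers. Myeloid markers in T cells summed to between 5.01 and 2409 CPM, with 2409, 985 and 890 CPM in libraries 1, 5 and 12 and at most 7.63 CPM in the other 7. The part of such RNA in the granzyme levels was not tested. Leaving out T cells with a UMI of MS4A1, CD79A or MZB1 did not raise every level. In the 9 libraries that kept at least 100 T cells, GZMA was then 0.796 to 2.46 times its level in all T cells (median 1.49). For GZMB the range was 0.901 to 2.27 (median 1.51). GZMA fell in libraries 2 and 12 (0.796 and 0.962 times), GZMB in library 2 and GZMM in library 1 (0.722 times).

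Outside the T cells, 1 other kind of cell carried granzyme RNA at a comparable level. The 141 cells of the innate lymphoid gate (at least 3 UMIs over NCR1, KLRD1, TYROBP, KIT and FCER1G, with none of the 3 CD3 genes) had 1350 CPM of GZMA, 4345 CPM of GZMB, 113 CPM of GZMK and 132 CPM of GZMM when pooled. The 3 libraries with at least 20 such cells were 8, 9 and 12, and GZMA there ran from 9.32 CPM in library 9 to 2375 CPM in library 12. GZMB was between 1456 and 5560 CPM in the same libraries, so it was present in each, while the GZMA of library 9 rested on 1 UMI. Plasma cells had pooled levels of 4.76 CPM of GZMA and 38.5 CPM of GZMB, and GZMB reached 124 CPM in the plasma cells of library 13. B cells in no other gate had 2.63 and 13 CPM of these genes. The 166 cells of the epithelial gate had 2 UMIs of GZMA and 1 of GZMB in all, and only 13 cells met the myeloid gate.

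Which library belongs to which group was not given, and the following reading holds only if the barcode numbers follow the order in which the labels list the samples. A measured fact that bears on it is that the samples at places 4 and 6 are both host samples whose titles share a number, and that these 2 numbers share their barcodes. No group mean or test was made. Read so, GZMA in T cells was at 2855 and 8748 CPM in the donor libraries (2 and 5), at 723, 1370.1 and 683 CPM in the combined libraries (10, 12 and 13), and at 319.8 and 509 CPM in the host libraries with at least 20 T cells (1 and 6). In the healthy libraries (3, 8, 9 and 11) it was at 117, 109, 25.9 and 278 CPM. These 4 sets of values did not overlap in all T cells, and the separation depended on which droplets were kept, as given below. GZMB stood at 3897 and 8782 CPM in the donor places, 1303, 2535 and 1573 CPM in the combined, 1633 and 1439 CPM in the host and 233, 190.5, 193 and 455 CPM in the healthy places. For GZMB the host and combined values overlapped, and in all T cells they lay above the 4 healthy values and below the 2 donor values. The share of all genes that separate these places in the same way is not given here. The separation therefore cannot be read as particular to GZMA or GZMB.

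GZMK and GZMM were ordered differently in the same reading. GZMK was at 300.6 and 411 CPM in the donor places, and at 166 CPM in library 11, a healthy place, which was the next highest. The other 3 healthy places were at 39.3, 69.7 and 47.2 CPM, the combined places at 60.3, 33.3 and 29.8 CPM and the host places at 49.4 and 52.6 CPM, and these 3 groups overlapped. GZMM was at 193 and 0.481 CPM in the 2 donor places, so they held both its highest and its lowest value among libraries with at least 100 T cells when all T cells were counted. Library 10, a combined place, was the highest in T cells of no other gate (352 against 239 CPM in library 2) and in T cells without UMIs of MS4A1, CD79A or MZB1 (401 against 238 CPM). The combined places had 84.7, 45.2 and 92.3 CPM of GZMM, the healthy places 3.79, 18.4, 42.8 and 63.0 CPM and the host places 12.1 CPM and, in the 45 T cells of library 6, no UMI. In T cells of no other gate, the donor and combined places overlapped in GZMA (3247 CPM in library 2 and 3275 CPM in library 10) and in GZMB (4422 and 5307 CPM). In T cells without UMIs of MS4A1, CD79A or MZB1, GZMA was at 2274 CPM in library 2 and at most 2106 CPM in the combined places, but host and healthy places overlapped, with 323 CPM in library 1 and 414 CPM in library 11. GZMB in these cells was at 3511 CPM in library 2 and 4605 CPM in library 10. The healthy places stayed below the combined places in GZMB in both, at 247 to 681 against 2849 to 5307 CPM and at 251 to 685 against 2679 to 4605 CPM. The share of all genes that separate these places was not counted here either, so this cannot be read as particular to GZMB. The barcode sets coincide with part of this reading: the combined places all lie in the second set, the host and donor places in the first, and the healthy places in both. A difference between combined places and host or donor places therefore cannot be told apart from a difference between the sets.

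CD8 T cells are the classical carriers of granzymes, and the gates split the T cells by their coreceptor RNA. Of the T cells, 3867 (29.5%) had a CD8A UMI and none of CD4, 2048 (15.6%) had CD4 and no CD8A, and 52.3% had neither. The T cells with neither had more B and plasma RNA than CD8A T cells (MS4A1 at 140 against 7.60 CPM, MZB1 at 1566 against 511 CPM) and less CD3D (1271 against 1741 CPM). The first are called CD8A T cells and the second CD4 T cells below, and their median depths were 3366 and 3352 UMIs. In thinned CD8A T cells GZMA was detected in 32.4%, GZMB in 55.4%, GZMK in 15.2% and GZMM in 16.8%. The shares in thinned CD4 T cells were 12.1%, 27.1%, 4.0% and 2.20%.

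All 4 granzymes rose in CD8A against CD4 T cells, in a test of summed counts with the library as a block over the 9 libraries with at least 20 cells of each kind. In this comparison 7.42% of 7579 genes tested passed an adjusted p of 0.05 (edgeR quasi-likelihood test, Benjamini-Hochberg adjustment), with 2.81% higher and 4.6% lower in CD8A T cells. GZMA was at 62.2 to 25696 CPM in CD8A T cells (median 1118) and 25.5 to 9615 CPM in CD4 T cells (median 125), and was higher in the former in 9 of 9 libraries. The fitted log2 difference was 2.60 (SE 0.246), a 6.07-fold rise, with an adjusted p of 9.71e-07. GZMB had medians of 2687 against 510.4 CPM and was higher in CD8A T cells in 9 of 9 libraries, with a log2 difference of 1.91 (SE 0.210) and an adjusted p of 6.35e-06. The levels of both kinds overlapped between libraries, and the difference lay within each library. The CD4 T cells of library 5 exceeded the CD8A T cells of each other library in GZMA and GZMB.

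GZMM had the largest fold of the 4, with 69.4 against 6.38 CPM in the median library and a log2 difference of 2.84 (SE 0.255, 7.15-fold, adjusted p 8.01e-07). It was higher in CD8A T cells in 8 of 9 libraries, and in library 3 both kinds were at 0 UMIs. Of the 8, library 5 had only 2 UMIs against 0 and library 8 had 40 against 1. Both kinds had at least 4 UMIs in 6 libraries, with log2 ratios from 1.14 to 3.97. For GZMK the log2 difference was 2.19 (SE 0.420, adjusted p 0.00202), with 220 against 35.5 CPM in the median library. GZMK was higher in CD8A T cells in 8 of 9 libraries. Library 12 went the other way, with 19.1 CPM in 1344 CD8A T cells and 79.1 CPM in 127 CD4 T cells. In the 5 libraries of numbers 8 to 13 alone, the difference for GZMK was 1.21 with an adjusted p of 0.214. Library totals in place of TMM scaling (trimmed mean of M-values) lowered the share of called genes that were higher in CD8A T cells from 37.9% to 25.9%, and GZMA, GZMB, GZMK and GZMM stayed higher. A UMI of MS4A1, CD79A or MZB1 was found in a median of 17.4% of CD8A and 10.8% of CD4 T cells, and the share was higher in CD8A T cells in 7 of 9 libraries. With T cells that held such a UMI left out, 8 libraries entered the fit and 574 genes were called. All 4 granzymes were still called higher in CD8A T cells. GZMA had log2 ratios from 1.63 in library 5 to 4.56 in library 12. GZMK in library 12 still went the other way, with 20.2 CPM in CD8A and 91.6 CPM in CD4 T cells. The part of B or plasma RNA in cells without such a UMI was not tested.

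**Figure D2:**
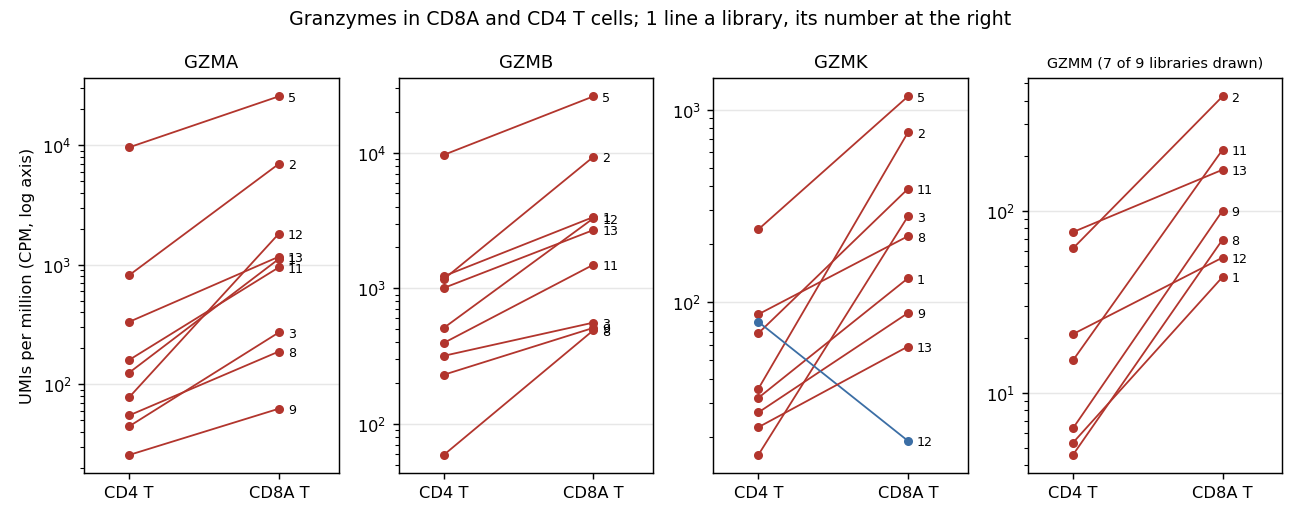
Levels of the 4 granzymes (CPM, log axis) in CD4 and CD8A T cells, with 1 line for each of the 9 libraries and its number at the right; a library with 0 UMIs in either kind is not drawn. Red lines rise to the CD8A T cells and the blue line falls: GZMK in library 12 was at 79.1 CPM in CD4 and 19.1 CPM in CD8A T cells.

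Other genes of granule killing and its control came from a list of 25, of which 23 passed the filter on low counts and FASLG and TBX21 did not. In CD8A T cells 12 of the 23 were higher, 3 were lower and 8 did not pass, beside the shares over all genes given above, and their median log2 difference was 0.93 against 0.01 over all genes tested. The 5 largest differences were those of CTSW (5.50), a protease of killer cells, of the receptor genes KLRD1 (5.04) and KLRK1 (4.38), of EOMES (4.81), a transcription factor of cytotoxic cells, and of PRF1 (3.0), which encodes perforin. GNLY, which encodes the granule protein granulysin, differed by 2.38 (SE 0.204) and NKG7, a membrane protein of granules, by 2.22 (SE 0.186). Named after their values were seen, the 3 lower genes were STX11 (-0.76), which acts in granule release, CTSC (-0.86), whose protease activates granzymes, and SRGN (-0.45), which encodes the proteoglycan that packs them. Myeloid cells also express these 3 genes, and myeloid markers were higher in CD4 than in CD8A T cells in 7 of 9 libraries. They summed to 5344, 5116 and 4072 CPM in the CD4 T cells of libraries 1, 5 and 12, against 927, 1452 and 953 CPM in the CD8A T cells, and to at most 12.2 CPM in either kind elsewhere. The part of this RNA in the 3 lower values was not tested.

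Co-detection asks whether 2 granzymes are found in the same T cell more often than their shares in that library predict. It was measured as a log2 odds ratio in each of the 10 libraries with at least 100 T cells, in thinned cells and with 0.5 added to each count, and tested by an exact two-sided sign-flip permutation of the mean, adjusted over the 6 pairs. The smallest raw p that 10 libraries can give is 0.00195. GZMA and GZMB were paired most evenly, with a mean of 4.66 and single libraries between 4.06 and 5.98 (adjusted p 0.00293, above 0 in 10 of 10). They were found together in 2090 cells where 1102 were expected. Most cells with GZMA also had GZMB, between 61.1% and 96.1% of them by library (median 88.3%). Of the cells with GZMB, 14.6% to 82.1% had GZMA (median 32.7%).

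GZMK was paired with GZMA at a mean of 3.62 and with GZMB at 2.65 (adjusted p 0.00293 for each by the exact permutation, above 0 in 10 of 10 libraries), but with far more spread between libraries than the pair GZMA and GZMB. For GZMK with GZMA single libraries ran from 0.03 in library 12 to 6.92 in library 5, and library 12 was above 0 only through the 0.5 added, with 13 joint cells against 13.01 expected. GZMK and GZMM had a mean of 2.85 with the same adjusted p of the exact permutation. They were found together in 385 cells where 130 were expected. All 6 libraries in which at least 1 joint cell was expected were above 0 for this pair. Libraries 3 and 5 had no joint cell, so their values of 0.92 and 1.01 came from the 0.5 added. The p of this pair counts both as above 0. GZMA and GZMM had a weak pairing of 0.85 (adjusted p 0.0117 by the exact permutation, above 0 in 8 of 10 libraries), and without T cells that held B or plasma UMIs it was 0.597 with an adjusted p of 0.145. Within CD8A T cells alone the mean was -0.18 over 8 libraries, of which 5 were above 0, and the lowest, -3.77 in library 5, had no GZMM. GZMB and GZMM had a mean of 0.54 that did not pass (adjusted p 0.0723 by the exact permutation), and within CD8A T cells it was -0.41 over 8 libraries. No thinned T cell of library 5 had GZMM (0 of 719, which allows a share of up to 0.417% of cells with a UMI), so its odds ratios with GZMM rest on the 0.5 added. The same holds for library 3, which had 6 cells with GZMM and no joint cell with GZMA, GZMB or GZMK. Its value of 0.97 for GZMA with GZMM is among the 8 above 0.

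**Figure D3:**
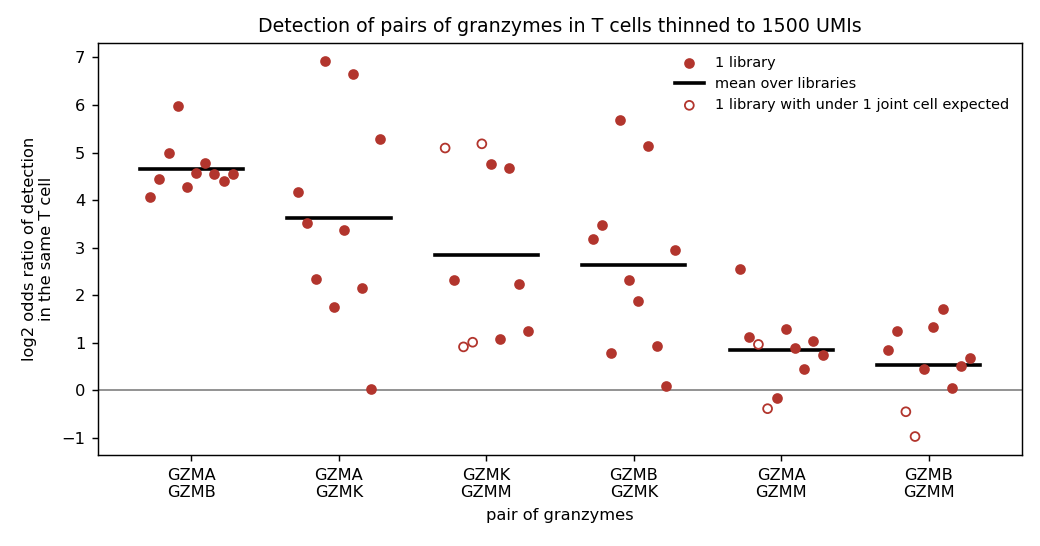
Log2 odds ratio of finding 2 granzymes in the same thinned T cell, by pair, with 1 point a library, open where fewer than 1 joint cell was expected, and a bar at the mean of 10 libraries. GZMA with GZMB lay between 4.06 and 5.98 in each library, while GZMA with GZMK ran from 0.03 to 6.92.

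The partners of GZMK differed between libraries. Of the 238 thinned T cells with GZMK in library 5, 98.7% also had GZMA (exact binomial 95% interval 96.4 to 99.7). The share was 90.9% of 11 cells in library 10, 79.3% of 474 cells in library 2, 72.2% of 18 cells in library 13 and 60.4% of 48 cells in library 1. It was 27.1% of 48 cells in library 12, 21.4% of 192 cells in library 11, 18.4% of 49 cells in library 9, 17.6% of 34 cells in library 8 and 13.8% of 29 cells in library 3. By this raw share the libraries fell at both ends, with library 12 nearest to the low end. If the numbers follow the order of the labels, the 4 lowest are the healthy places (13.8% to 21.4%), and library 12 is a combined place whose interval, 15.3% to 41.8%, covers the 3 highest of these 4 shares. Joint cells exceeded those expected in 9 of 10 libraries, and library 12 was the exception (13 against 13.01). Libraries 3, 8, 9 and 11 had 4 against 1.07, 6 against 2.30, 9 against 1.33 and 41 against 14.2. Library 12 thus resembled them in the raw share and not in the excess over expectation.

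The share of cells with GZMK that had GZMB ran from 13.8% in library 3 to 100% of 11 cells in library 10. It was between 13.8% and 35.3% in libraries 3, 8, 9 and 11 and between 52.1% and 100% in the other 6 libraries. GZMM among the cells with GZMK was not ordered in this way: it was in 50.5% of them in library 11, 49.0% in library 9, 46.4% in library 2, and in none of 238 in library 5, which allows up to 1.26%. Such shares also rise with how common the partner is in a library, and GZMA was in 56.6% of all thinned T cells of library 5 and 7.40% of those of library 11.

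Within CD8A T cells, those with a GZMK UMI were set beside those without in the 6 libraries with at least 20 of each. No test was made, since GZMK sorted the cells. GZMA was higher with GZMK in 5 of the 6 libraries, by log2 differences of 0.69 to 3.41. In library 11 it was lower, at 253 CPM with GZMK and 1134 CPM without, and GZMB was lower there too (1037 against 1613 CPM). GZMM was higher with GZMK in each of the 5 libraries where it had at least 4 UMIs in both kinds, by 0.85 to 3.33. Library 11 had 700 CPM of GZMM in its 67 CD8A T cells with GZMK and 88.9 CPM in the 199 without. The CD8A T cells with GZMK of library 11 thus had more GZMM and less GZMA and GZMB, whereas those of library 2 had more of all 3.

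Counted by their combination, 58.7% of the thinned T cells had none of the 4 genes (57.9 to 59.6), 15.8% had GZMB alone and 9.53% had GZMA with GZMB. The share with none ran from 31.3% in library 5 to 86.0% in library 9. GZMB alone ranged from 5.37% in library 9 to 32.9% in library 13, with a median of 11.2%. The combination of GZMA, GZMB and GZMK made up 32.4% of the T cells of library 5 and 8.71% of those of library 2, against 0.204% to 3.42% in the other 8. All 4 genes together were found in 6.88% of the T cells of library 2 and at most 0.855% elsewhere. Library 11 stood out by GZMK with GZMM alone, at 4.19%, where the median of the 10 libraries was 0.228%. GZMB with GZMM alone was most common in libraries 10 and 13, at 8.12% and 6.84%. At 1500 UMIs a cell can miss a gene it expresses, so these shares are of cells with a UMI.

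**Figure D4:**
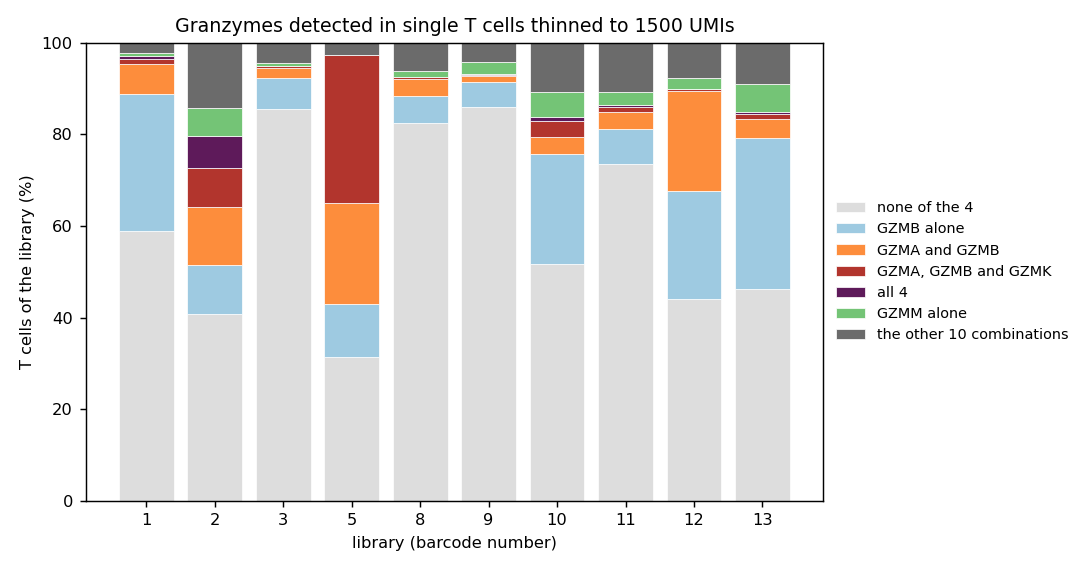
Share of thinned T cells by the granzymes detected in them, for each library with at least 100 T cells; the 16 combinations are drawn as 6 and the rest. Library 5 had 32.4% with GZMA, GZMB and GZMK, and library 9 had 86.0% with none.

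The genes most like each granzyme across single T cells were largely other granule genes. Likeness was the mean over 10 libraries of the within-library Pearson correlation of log(1 + counts per 10000), among 5474 genes found in at least 5% of T cells, and it is a description across cells that share libraries and depth. GZMA was most like GZMB (0.636), GNLY (0.385) and GZMK (0.364). GZMB was most like GZMA, NKG7 (0.465) and HOPX (0.454), which encodes a homeodomain protein of effector and resident T cells. GZMK was most like GZMA, NKG7 (0.355) and CST7 (0.349), whose product cystatin F inhibits granule cathepsins. GZMM was most like GZMK (0.267), NKG7 (0.255) and CTSW (0.253), values too weak in sparse counts to rank. The correlation of GZMM with GZMA was 0.074 and with GZMB 0.091.

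ITGAE encodes the alpha chain of the integrin CD103, which holds resident T cells at the gut epithelium. CD8A T cells with an ITGAE UMI were compared with those without in 9 libraries, and 0.567% of 5993 genes tested were called, 0.367% higher and 0.2% lower with ITGAE. GZMB was the 1 granzyme called, with a log2 difference of 0.66 (SE 0.138, adjusted p 0.0424, edgeR), a 1.58-fold rise seen in 8 of 9 libraries. Its level was 615 to 24461 CPM with ITGAE (median 3612) and 288 to 27590.0 CPM without (median 2249). The call was lost in 6 of the 9 fits that left out 1 library, in which the adjusted p was between 0.0267 and 0.140. GZMA differed by 1.0 (SE 0.224, adjusted p 0.0542, edgeR) and was higher with ITGAE in 7 of 9 libraries, by up to 2.63 in library 10. It did not pass in this fit and passed without library 1, 5 or 9.

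GZMM went the other way in level, with a log2 difference of -0.64 (SE 0.169, adjusted p 0.0886, edgeR), lower with ITGAE in 8 of 9 libraries, and it did not pass. GZMK differed by -0.20 (SE 0.208, adjusted p 0.807, edgeR) and was higher with ITGAE in 4 of 9 libraries. Of the 23 measured genes of the granule list 0 were called by edgeR, 5 had an unadjusted p under 0.05 and DESeq2 called 1, and their median was -0.03 against -0.02 over all genes tested. PRF1, GNLY and NKG7 differed by 0.20, -0.05 and 0.01. Cells with ITGAE were deeper, with a median of 3617.5 against 2978 UMIs in the median library and more UMIs in 9 of 9. Plasma-cell markers were higher with ITGAE in 7 of 9 libraries, with medians of 1116 against 326 CPM. The share that met the B-cell gate was higher with ITGAE in 9 of 9 (medians 3.57% against 2.29%). With T cells that held B or plasma UMIs left out, 32 genes were called and 25% of them were higher, against 64.7% of 34 in the main fit. The part of depth or of B and plasma RNA in these results was not tested. With library totals in place of TMM, 10 genes were called and all of them were higher, against 64.7% of 34 with TMM, and the adjusted p of GZMB was 0.0508.

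Dividing T cells were those with at least 3 UMIs over 7 genes of cell division (MKI67, TOP2A, TYMS, RRM2, CCNA2, BIRC5 and CDK1), and the others had none. This split went in opposite directions in different libraries. In library 2 GZMA was at 4681 CPM in 194 dividing and 2178 CPM in 1879 other T cells, and in library 5 at 20613 CPM in 75 dividing and 6738 CPM in 573 others. In library 3 it was at 16.3 against 179.9 CPM, in library 11 at 31.9 against 282 CPM and in library 9 at 0 against 24.4 CPM. GZMB followed, with 6456 against 2998 CPM in library 2 and 19642 against 6825 CPM in library 5, but 44.8 against 342, 58.5 against 460.2 and 58.8 against 205 CPM in libraries 3, 11 and 9.

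B-cell RNA moved with this difference. In libraries 3, 9 and 11, 86.3%, 81.0% and 84.7% of the dividing cells of the T gate also met the B-cell gate, against 10.3% and 13.3% in libraries 2 and 5. Their CD3D, CD3E and CD3G summed to 816, 636 and 567 CPM, where the other T cells of these libraries had 2185 to 2556 CPM and the dividing cells of libraries 2 and 5 had 2255 and 3388 CPM. MS4A1 and CD79A summed to 1102 to 1808 CPM in the dividing cells of libraries 3, 9 and 11 and to 50.5 and 66.3 CPM in those of libraries 2 and 5. Dividing cells were also deeper, with a median of 7305 to 11746 UMIs per library against 2717 to 3908.

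In the test over these 5 libraries 33.1% of 9110 genes were called, 16% higher and 17.1% lower in dividing cells. GZMM was the 1 granzyme called, lower by a log2 difference of -2.12 (SE 0.452, adjusted p 0.00641, edgeR). The value was -0.99 with an adjusted p of 0.120 when 10 cells of each kind sufficed, which took in 10 libraries. GZMA differed by -1.49 (SE 0.806, adjusted p 0.179, edgeR), GZMB by -1.42 (adjusted p 0.124) and GZMK by -1.64 (adjusted p 0.132). Without library 2 the differences of GZMA and GZMB were -2.41 and -2.10 with adjusted p of 0.0341 and 0.0203 (edgeR), and without library 5 that of GZMB was -2.06 with 0.0487. With T cells that held a UMI of MS4A1, CD79A or MZB1 left out, only libraries 2 and 5 had at least 20 cells of each kind. There GZMA was higher in dividing cells by 0.49 (adjusted p 0.000321, edgeR) and GZMB by 0.47 (adjusted p 0.000573), and GZMM was lower by -0.85 (adjusted p 0.0188), with 164 against 244 CPM in library 2 and 0 against 3 UMIs in library 5. In these cells GZMA was at 2757 against 1926 CPM in library 2 and 31353 against 15938 CPM in library 5. A fit of 2 libraries hardly measures the spread between libraries, so its adjusted p-values carry little weight. Of the granule list 0 genes were higher (also 0 at an unadjusted p under 0.05 and by DESeq2) and 6 lower in dividing cells over the 5 libraries by edgeR, with a median of -0.89 against -0.06 over all genes tested, led by SRGN (-2.02), CTSW (-1.97), IL2RB (-1.72), a chain of the interleukin-2 receptor, UNC13D (-0.89) and LAMP1 (-0.84), and the same B-cell RNA stands beside these values. PRF1 differed by -0.15, GNLY by -2.51 and NKG7 by -1.79, and these 3 did not pass. Library totals in place of TMM moved the median of all genes from -0.06 to 0.35 and the share of higher calls from 48.3% to 82.5%.

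**Figure D5:**
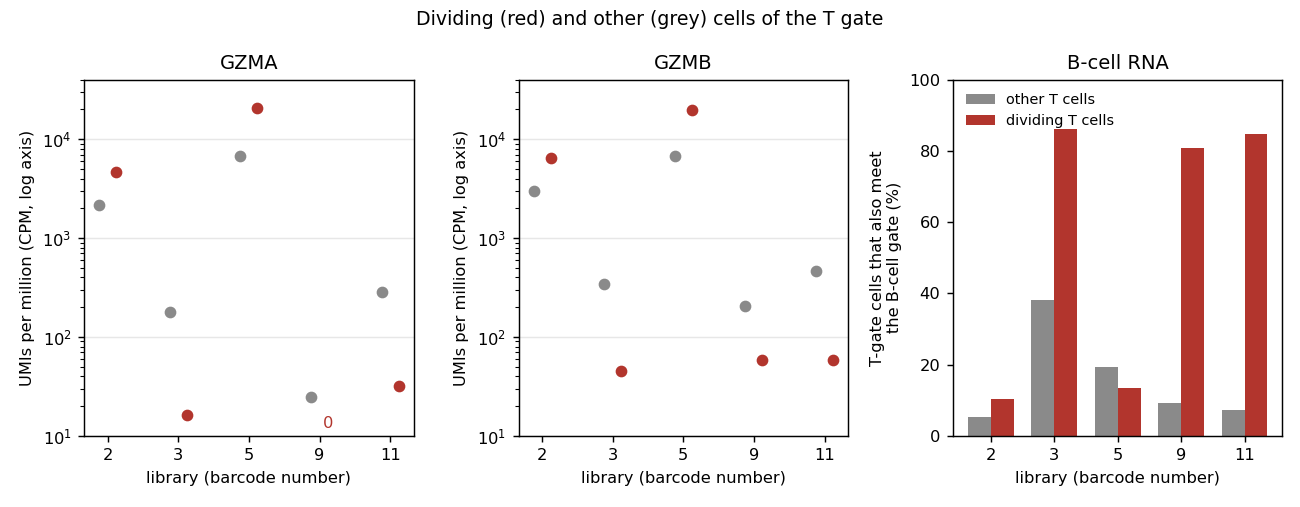
Levels of GZMA and GZMB (CPM, log axis) in dividing and other cells of the T gate in 5 libraries, a red 0 marking no UMI, and the percent of each that also met the B-cell gate. Dividing cells were higher in libraries 2 and 5 and lower in libraries 3, 9 and 11, where 81.0% to 86.3% of them met the B-cell gate.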

How the data were processed

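Single-cell RNA of sorted colon leukocytes was read from the table of raw UMI counts that the authors deposited. Cell Ranger 3.1.0 is named in the file headers and in the submitters' processing notes, which also list Seurat 3.1 without a role. Per the labels' protocols, Chromium 3′ kits v2 and v3 were used, but the sources used here do not say which library had which kit, nor the genome build or annotation. The authors' list of kept barcodes was applied, in which each cell has at least 1502 UMIs, and the authors' normalized matrix was not used. A library had 3205412 to 19655788 UMIs over all its barcodes, and 62189 to 11557083 in its T cells.

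Cells were gated on raw counts, and 2353 kept cells met over 1 gate. For shares and co-detection each cell was thinned to 1500 UMIs. Counts were summed by library and kind of cell, where a library held 20 or more cells of each of the 2 kinds, filtered with filterByExpr, scaled by TMM and tested with edgeR 4.0.16 (R 4.3.3), with the library as a block and a threshold of 0.05 on Benjamini-Hochberg adjusted p. Genes that set a gate were left out of the counts of called genes. The library pairs the 2 kinds, which are different cells of the same library. DESeq2 1.42.0, other scalings, filters, gates, cell minimums and sets of libraries were alternatives. The scripts were tested on simulated data. The members and lists were chosen with earlier results of these data known. Named were the 4 members, the 5 genes of the granule list with the largest called differences, PRF1, GNLY and NKG7, and the 3 genes most like each member. Gene symbols missing from the files were filled from a table of gene names.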

Additional observations from a re-analysis of the deposited data

Results flagged for a closer look

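A single library stood apart from the others in 6 of the 20 sets of library values looked at. The measure was the gap to its nearest neighbour as a share of the whole range (Dixon's 95% value). Chance exceeds this value in about 1 in 20 sets of normally distributed values. Levels entered in CPM and not as logs, and the sets share genes and libraries, so 6 of 20 cannot be set against that rate. In T cells, GZMA at 8748 CPM and GZMB at 8782 CPM stood apart in library 5, and GZMM at 193 CPM in library 2. The latter held for all T cells only, since library 10 was higher in T cells of no other gate (352 against 239 CPM) and in those without B or plasma UMIs (401 against 238 CPM). The log2 odds ratio of GZMA with GZMB was 5.98 in library 5, above the other 9. The log2 ratio of GZMK between CD8A and CD4 T cells was -2.05 in library 12, the 1 library of 9 below 0. The log2 ratio of GZMM between CD8A T cells with and without ITGAE was -1.93 in library 11, the lowest of the 8 libraries with a ratio.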

How the results depend on the processing

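The main tests used the library as a replicate block, so that both kinds of cell were paired within a library. With no replicate block, edgeR called 17 genes between CD8A and CD4 T cells, and the log2 differences were 1.84 for GZMA, 1.78 for GZMB, 2.51 for GZMK and 2.61 for GZMM, none past the threshold (adjusted p 0.244 to 1.0). With no replicate block, dividing cells had 343 called genes, 0.61 for GZMA and 0.51 for GZMB, both reversed, and -1.37 for GZMM, and the ITGAE comparison had 0 called genes (9 at an unadjusted p under 0.05, and 149 by DESeq2 with the block) and 0.22 for GZMB. In CD8A against CD4 T cells, leaving out 1 library gave at least 418 called genes and changed no call of a granzyme, the first set of libraries alone gave 174 genes, and the second set 1.21 for GZMK (adjusted p 0.214).

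For dividing cells the direction of GZMA and GZMB depended on the libraries used, which the choice of droplets also changed. Without T cells that held B or plasma UMIs it was reversed, at 0.49 and 0.47, with 1090 genes called. Only libraries 2 and 5 entered that fit, and both genes were higher in their dividing cells before as well. Libraries 3, 12 and 13 kept 11 to 14 dividing cells, too few for the fit. In library 3 both genes stayed lower (GZMA at 15.8 CPM, from 1 UMI, against 324 CPM). In library 12 GZMA was higher and GZMB lower, and in library 13 both were higher. The first set alone gave 1343 genes, and the second set -3.61 for GZMA, -2.90 for GZMB and -8.21 for GZMK, a fitted value that is no bound. With no filter on low counts GZMA, GZMB and GZMK passed at -1.49, -1.45 and -1.64, and DESeq2 called GZMB at -1.52. A minimum of 10 cells ended the call of GZMM (-0.99), and one of 50 gave 1875 genes. Leaving out 1 library gave 1875 genes (without library 9), 1991 (without library 11) and up to 3054, with -2.41 to -0.75 for GZMA and -2.10 to -0.85 for GZMB.

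The ITGAE comparison gave 149 genes by DESeq2, 10 without TMM, 264 with no filter, 81 with a T gate of 2 UMIs, 73 at 50 cells and 0 in the first set alone (249 at an unadjusted p under 0.05). GZMA passed by DESeq2 (0.96), with no filter (0.98), with the gate of 2 UMIs (1.02) and in the second set (1.31), and GZMM by DESeq2 (-0.62) and with no filter (-0.66). GZMB did not pass without TMM (0.66), with a gate of 5 UMIs (0.65) or in the first set (0.25). Leaving out 1 library gave 0 genes (without library 12; 556 at an unadjusted p under 0.05) to 108 (without library 1), 0.83 to 1.17 for GZMA, 0.53 to 0.75 for GZMB, and -0.32 to 0.036 for GZMK, reversed without library 11.

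GZMB with GZMM passed at 1000 UMIs (0.78), with 2 UMIs of each gene (0.88) and without library 3 or 5 (range 0.41 to 0.71), and GZMA with GZMM did not pass without B or plasma UMIs (0.60). The other 4 pairs passed in each alternative run. Number 4 in place of 6 could change no call, since neither number had enough cells to enter these tests. The cause of these changes was not tested. Depth limits GZMM most, with 4126 UMIs in all T cells.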

Other observations

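Library 7 had 13 T cells, too few for the comparisons, with 627 CPM of GZMB and no UMI of GZMA, GZMK or GZMM. Plasma cells carried GZMB unevenly: 124 CPM in the 398 plasma cells of library 13 and 57.1 CPM in the 452 of library 10, against 0 to 24.3 CPM in the other 7 libraries with at least 20 plasma cells.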
